A study of Mus musculus with 6 samples.

Results

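The platelet-derived growth factor (PDGF) family was followed in 4T1 mammary tumors of mice treated with water or with the kinase inhibitor TKI258. The 7 genes, chosen by name, were the ligand genes Pdgfa, Pdgfb, Pdgfc and Pdgfd, the receptor genes Pdgfra and Pdgfrb, and Pdgfrl, which encodes a receptor-like protein. They were 7 of 19937 genes with a probe set of their own on the array, and each was measured by 1 probe set. 4T1 is an established mouse mammary carcinoma line. Both groups consisted of Balb/C mice that had received 750000 4T1 cells in a mammary gland. From day 7 the mice were dosed by mouth every day for 14 days, 3 with water and 3 with 40 mg/kg of TKI258. Each array held RNA of 1 snap-frozen whole tumor, so signal came from carcinoma cells together with stroma, vessels, immune cells and any adjoining tissue. The age and sex of the mice were not given in the sources used here. TKI258 (dovitinib) blocks the kinase activity of several receptor tyrosine kinases, including those for FGF, VEGF and PDGF. The comparison asked which transcripts differed between treated and untreated tumors.

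PDGF ligands are secreted dimers that bring receptor chains together and switch on their tyrosine kinases. PDGF-A and PDGF-B are cut inside the cell by furin-like proteases, whereas PDGF-C and PDGF-D are secreted with a CUB domain that plasmin or the plasminogen activators remove outside it. PDGFR-alpha answers PDGF-A, PDGF-B and PDGF-C and marks fibroblasts, and PDGFR-beta answers PDGF-B and PDGF-D and marks pericytes and smooth muscle cells. In growing vessels, endothelial tip cells release PDGF-B to recruit pericytes.

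Pdgfc and Pdgfrl were higher in every TKI258 tumor than in every water tumor, with group means 2.73-fold and 2.25-fold apart, while the kinase receptor genes Pdgfra and Pdgfrb and the ligand genes Pdgfa and Pdgfb overlapped between groups. None of the 7 genes passed limma's test with Benjamini-Hochberg adjustment over all 34760 probe sets, where 0% of probe sets passed (0 of 34760, with 2803, or 8.06%, at an unadjusted limma p under 0.05). At that unadjusted level 2 of the 7, Pdgfc and Pdgfrl, were higher, against a background of 3.79% of all genes higher. The groups did not overlap for 3 of the 7 genes (Pdgfc, Pdgfrl and, by a narrow margin, Pdgfd), all higher, against 8.66% of all genes higher and 6.49% lower.

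**Figure D1:**
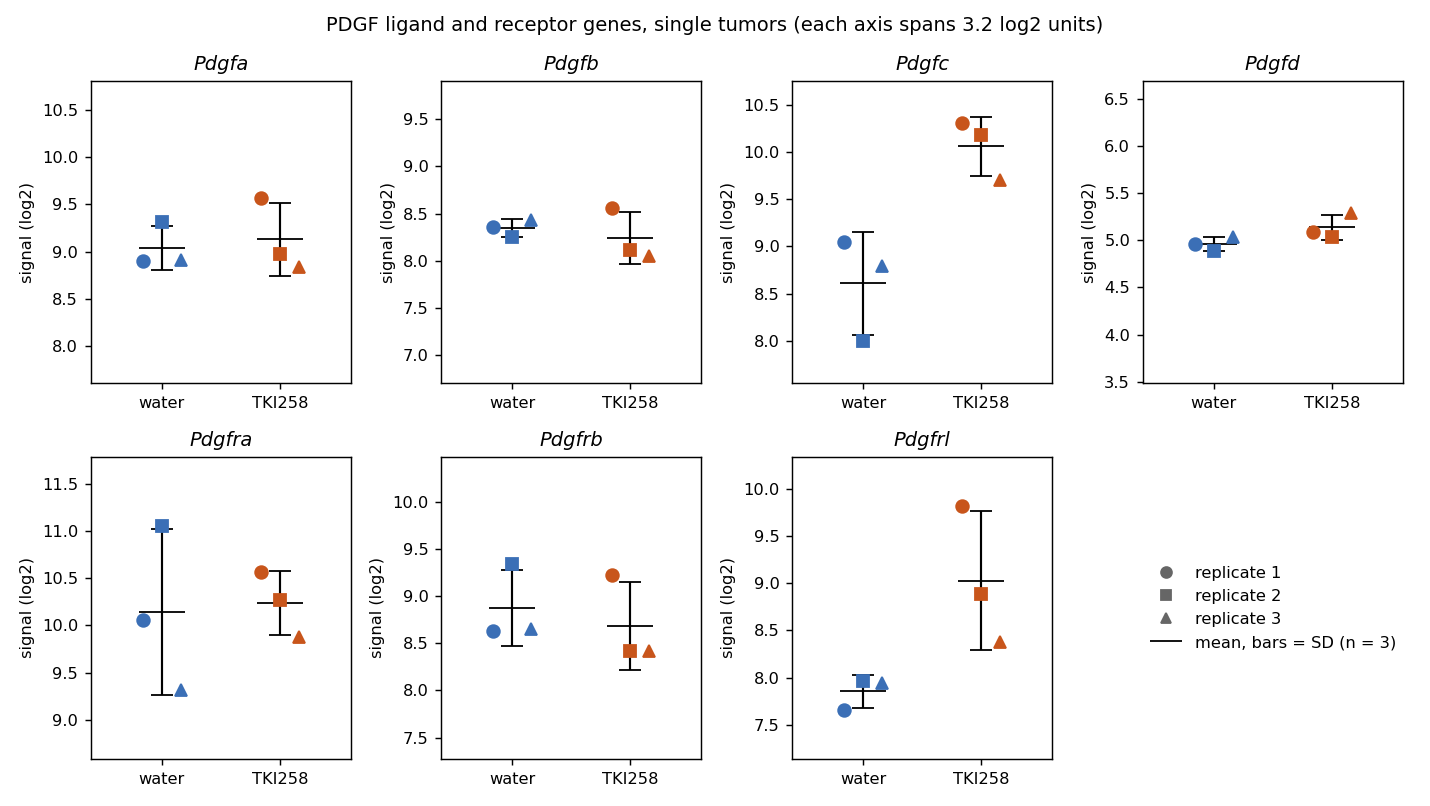
Signal of each PDGF gene in single tumors, on a log2 axis that spans the same number of units in every panel. Points are tumors (3 water in blue, 3 TKI258 in orange), and horizontal lines with bars are means and SD. In the Pdgfc and Pdgfrl panels every TKI258 tumor lies above every water tumor, and in the Pdgfra panel the water tumors spread from 9.31 to 11.06.

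The arrays resembled each other closely, with correlations of 0.988 to 0.992 within water and 0.981 to 0.993 within TKI258. The epithelial keratin gene Krt8 was at 11.55 to 11.88 in all tumors, above the array medians of 6.38 to 6.44, and the epithelial adhesion gene Epcam, at 6.55 to 8.03, lay above them too. Marker lists of other tissues set some tumors apart. Keratinocyte markers averaged 6.95 and 6.61 in water replicates 2 and 3 and 5.07 to 5.21 in the others. B cell markers averaged 8.94 in TKI258 replicate 3 and 6.92 in water replicate 1, against 4.99 to 5.14 elsewhere. Skeletal muscle markers were highest in water replicate 2, at 7.20 against 5.93 to 6.49. The adipocyte list mean was 6.44 to 7.27 in water and 7.30 to 8.68 in TKI258 tumors, with 13 of 13 members higher, Adipoq by 2.12 and Plin1 by 0.86 on the log2 scale, and none passing.

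Of the ligands, Pdgfc differed most. PDGF-C acts through PDGFR-alpha and is made by many epithelial and mesenchymal cells. Its log2 signal was 9.04, 8.0 and 8.79 in water replicates 1 to 3 and 10.30, 10.17 and 9.71 in TKI258 replicates 1 to 3. The lowest TKI258 tumor thus exceeded the highest water tumor by 0.66, and water replicate 2 lay well below the other water tumors. The group means were 8.61 ± 0.54 and 10.06 ± 0.31 (SD, n = 3), a log2 difference of 1.45 ± 0.29 (SE). The 95% interval of the ratio ran from 1.69-fold to 4.41-fold higher. The unadjusted limma p was 0.00178, the 59th smallest of all 19937 genes, and limma's adjusted p was 0.484. The exact two-sided permutation test gave p = 0.1, the smallest that 3 tumors against 3 allow. Leaving out water replicate 2 gave the smallest difference of the alternatives, 1.15, and leaving out water replicate 1 together with TKI258 replicate 3 gave the largest, 1.84, at unadjusted limma p of 0.00803 or less in all 16 alternatives and at an adjusted p of 0.296 to 0.798. Not all of these alternatives could move the difference: the threshold of 0.1 reused the main fit. Filtering low signals, averaging probe sets and testing only probe sets that name 1 gene left it at 1.45. The replicate block and the trended and robust prior left it there too. Only 47 genes, 0.236% of all, were higher by more than 1 log2 unit, Pdgfc and Pdgfrl among them.

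**Figure D2:**
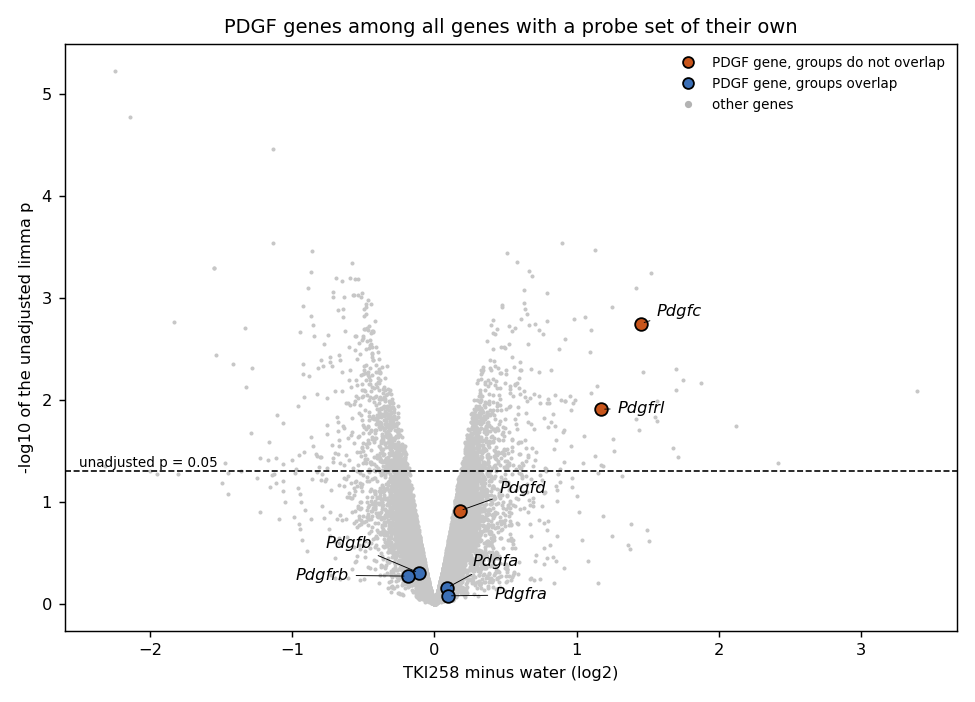
Difference between TKI258 and water tumors (log2, horizontal) against the -log10 of the unadjusted limma p (vertical) for 19937 genes, with the 7 PDGF genes as large points, orange where the groups do not overlap. Pdgfc at 1.45 and Pdgfrl at 1.17 lie to the right of nearly all genes, and the other PDGF genes lie within 0.19 of 0.

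The stretch of DNA before the start of Pdgfc is shown because this gene differed most, next to that of Vegfc, whose profile was among the nearest to both Pdgfc and Pdgfrl (values follow). Both are the 250 bases before the annotated start in RefSeq (GRCm38.p6), 5′ to 3′ on the plus strand, at chr3:81036166-81036415 for Pdgfc and chr8:54077282-54077531 for Vegfc, with capitals for matches to the motifs searched.
Pdgfc: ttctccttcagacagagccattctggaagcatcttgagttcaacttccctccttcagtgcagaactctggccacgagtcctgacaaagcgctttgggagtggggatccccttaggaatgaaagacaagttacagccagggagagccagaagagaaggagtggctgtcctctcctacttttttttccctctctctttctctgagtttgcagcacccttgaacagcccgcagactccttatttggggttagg
Vegfc: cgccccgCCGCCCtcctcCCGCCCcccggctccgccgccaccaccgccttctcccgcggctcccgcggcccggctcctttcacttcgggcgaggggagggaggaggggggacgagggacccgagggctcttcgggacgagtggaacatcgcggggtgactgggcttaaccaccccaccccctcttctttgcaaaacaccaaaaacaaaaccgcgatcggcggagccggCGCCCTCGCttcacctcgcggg
The motifs, searched on both strands, were the GC box GGGCGG, the EGR site GCGNGGGCG, the AP-1 site TGANTCA, the TATA box TATAAA, the CCAAT box CCAAT and the FOX core TGTTTAC. The Pdgfc window held no match, and its GC content was 50.8%, near the median of 52.4% over 32851 windows of this length. The Vegfc window held 2 GC boxes and 1 EGR site and had 71.6% GC. Of all windows 32.7% held a GC box, 4.7% an EGR site, 6.75% an AP-1 site, 12.4% a TATA box, 33.8% a CCAAT box and 3.17% a FOX core. These matches are letters in a window and were not measured as bound.

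Pdgfa, whose product signals through PDGFR-alpha and drives fibroblast growth, overlapped between groups. Its log2 signal was 8.90, 9.31 and 8.91 in water replicates 1 to 3 and 9.57, 8.98 and 8.84 in TKI258 replicates 1 to 3. TKI258 replicate 1 and water replicate 2 were the highest and the other 4 tumors lay between 8.84 and 8.98. The difference was 0.09 ± 0.21 (SE; 95% interval -0.42 to 0.60, limma adjusted p = 0.914), and it turned to -0.13 without TKI258 replicate 1. Pdgfb, the pericyte-recruiting ligand, was 8.36, 8.25 and 8.44 in water and 8.56, 8.11 and 8.05 in TKI258 tumors. Its highest tumor and both its lowest were TKI258 tumors, so the groups overlapped throughout. The difference was -0.11 ± 0.15 (95% interval -0.46 to 0.25, limma adjusted p = 0.842), and -0.27 without TKI258 replicate 1. In the same tumors all 10 tip cell genes had lower means in the TKI258 group (list mean 7.93 to 8.46 in water and 7.10 to 7.31 in TKI258), among them Esm1 by -2.14 and Angpt2 by -1.06, and none of the 10 passed the limma test over all probe sets. The general endothelial list mean was 7.42 to 7.86 in water and 7.27 to 7.65 in TKI258 tumors, with Pecam1 at -0.16 ± 0.34 and Cdh5 at -0.51 ± 0.18. Of its 15 genes 12 had a lower and 3 a higher mean in the TKI258 group, and none passed. Emcn (-0.74 ± 0.16) and Cd93 (-0.88 ± 0.22), named after their values were seen, were the 2 lower without overlap. None was higher without overlap, against 6.49% of all genes lower and 8.66% higher.

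Pdgfd, which encodes a ligand of PDGFR-beta, had a low signal, below the median of all values in all 6 tumors. It was 4.96, 4.89 and 5.03 in water and 5.09, 5.04 and 5.29 in TKI258 replicates 1 to 3. TKI258 replicate 2 exceeded water replicate 3 by 0.00499, a gap far smaller than the SD within either group (0.07 and 0.13). The difference was 0.18 ± 0.10 (95% interval -0.06 to 0.42, limma adjusted p = 0.676).

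The difference between the ligands within a tumor was taken as a description. Because Pdgfa and Pdgfb differed little between the groups, the shifts mostly restate that of Pdgfc. Pdgfc minus Pdgfa was 0.14, -1.31 and -0.13 in water tumors and 0.73, 1.19 and 0.86 in TKI258 tumors, a shift of 1.36 log2 units. Pdgfc minus Pdgfb was 0.68, -0.25 and 0.35 in water and 1.75, 2.06 and 1.65 in TKI258 tumors, a shift of 1.56. Such differences across tumors do not rank the levels of different genes, since probes differ in brightness, but every TKI258 tumor had more Pdgfc relative to either ligand than every water tumor had.

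Of the receptors, the kinase genes showed no difference beyond the spread between tumors. Pdgfra was 10.05, 11.06 and 9.31 in water replicates 1 to 3 and 10.56, 10.27 and 9.88 in TKI258 replicates 1 to 3. The highest and the lowest of the 6 values were both water tumors, and all 3 TKI258 tumors lay between them. The difference was 0.10 ± 0.43 (limma adjusted p = 0.957), with an interval from 1.89-fold lower to 2.16-fold higher. Its direction depended on single tumors: leaving out water replicate 3 gave -0.32, leaving out water replicate 2 gave 0.55 and leaving out TKI258 replicate 1 gave -0.07. Pdgfrb was 8.63, 9.34 and 8.65 in water and 9.22, 8.42 and 8.41 in TKI258 tumors. Water replicate 2 and TKI258 replicate 1 were the highest, and TKI258 replicates 2 and 3 were the lowest, almost equal. The difference was -0.19 ± 0.28 (limma adjusted p = 0.858), with an interval from 1.83-fold lower to 1.41-fold higher. Leaving out water replicate 2 gave 0.04, array weights gave 0.08 and leaving out TKI258 replicate 1 gave -0.46. In that last case both Pdgfb and Pdgfrb were lower without overlap, against 11.3% of all genes.

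Pdgfrl encodes a secreted protein that resembles the extracellular part of PDGFR-beta and has no kinase domain. It was 7.66, 7.97 and 7.94 in water and 9.82, 8.88 and 8.37 in TKI258 replicates 1 to 3. The water tumors lay close together, within 0.31, and the TKI258 tumors were spread over 1.45 above them, with a gap of 0.41. The means were 7.85 ± 0.17 and 9.03 ± 0.73 (SD, n = 3), a log2 difference of 1.17 ± 0.34 (SE; limma unadjusted p = 0.0123, adjusted p = 0.574, exact permutation p = 0.1). The 95% interval of the ratio ran from 1.27-fold to 3.99-fold higher. Leaving out TKI258 replicate 1, the highest tumor, gave 0.77, and leaving out TKI258 replicate 3 gave 1.50. Its unadjusted limma p was 0.0405 or less in all 16 alternatives, and its adjusted p ran from 0.348 to 0.866. Pdgfrl minus Pdgfrb in the same tumor was -0.97, -1.37 and -0.71 in water and 0.60, 0.47 and -0.04 in TKI258 tumors, a shift of 1.36 with no overlap. Pdgfrl minus Pdgfra was -2.40, -3.09 and -1.37 in water and -0.74, -1.39 and -1.51 in TKI258 tumors, a shift of 1.08, and here the groups overlapped, with water replicate 3 above TKI258 replicates 2 and 3.

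Markers of the cells that carry these receptors did not separate the groups as lists. The fibroblast list (17 genes, mostly of matrix proteins) had means of 8.76 to 9.22 in water and 9.04 to 9.36 in TKI258 tumors. Of its members 12 had a higher and 5 a lower group mean, with a median difference of 0.22 against 0.02 over all genes, and none passed. The proteoglycan gene Dcn differed by 0.79 ± 0.23 with no overlap, and the collagen gene Col1a1 by 0.35 ± 0.24. Of the 17 genes, 5 were higher and 1 lower without overlap, against 8.66% and 6.49% of all genes. The higher ones were Dcn, Dpt (1.17 ± 0.47), Col3a1 (0.51 ± 0.20), Pcolce (0.25 ± 0.10) and Col5a1 (0.22 ± 0.10). The lower one was the collagen gene Col6a3 (-0.45 ± 0.10). All but Dcn were named after their values were seen. The mural cell list (16 genes) had means of 7.11 to 7.13 in water and 6.85 to 7.20 in TKI258 tumors, with a median difference of -0.13. Of its members 6 had a higher and 10 a lower group mean, and none passed. Rgs5 was at -0.22 ± 0.26 and Cspg4, below the median of all values, at 0.07 ± 0.10. The largest difference was that of Mcam (-0.54 ± 0.18, with overlap). Only Higd1b (-0.23 ± 0.10) was lower without overlap, and none was higher. Mcam and Higd1b were named after their values were seen. The epithelial list (11 genes) had means of 8.35 to 8.78 in water and 8.34 to 8.70 in TKI258 tumors, but its members differed in both directions. The claudin genes Cldn4 (0.91 ± 0.30) and Cldn3 (0.65 ± 0.18) and the keratin gene Krt7 (0.88 ± 0.36) were higher without overlap and Epcam was at 0.57 ± 0.31, whereas the basal keratin genes Krt5 (-1.80 ± 0.77) and Krt14 (-1.09 ± 0.66) were highest in water replicates 2 and 3, the tumors high in keratinocyte markers. The keratin gene Krt18 was lower without overlap (-0.32 ± 0.11), at 11.58 to 11.70 in water and 11.13 to 11.44 in TKI258 tumors. None of the 11 passed, and Cldn4, Cldn3, Krt7, Krt18, Krt5 and Krt14 were named after their values were seen. Platelet and megakaryocyte markers, since platelets store PDGF, had list means of 6.68 to 6.87 in water and 6.72 to 7.09 in TKI258 tumors, with Pf4 at -0.04 ± 0.36 and Itga2b at 0.27 ± 0.13. In whole tumors, more cells of a type and more RNA per cell cannot be told apart. Several other list means did not overlap between the groups, some by a narrow margin. The neutrophil list was 7.05 to 7.55 in water and 6.34 to 6.89 in TKI258 tumors, with 10 of 10 members lower. The macrophage list was 9.236 to 9.774 in water and 9.128 to 9.233 in TKI258 tumors, nearly touching, with 11 of 12 members lower. The tip cell list mean was lower without overlap too. Between the groups the adipocyte list ran in the direction of Pdgfc and Pdgfrl. Inside the TKI258 group it ran the other way: replicate 3, highest in adipocyte markers (8.68), was lowest in Pdgfc and Pdgfrl. TKI258 replicate 1, lowest in adipocyte markers (7.30), was highest in both genes. Inside the water group the list mean was 7.27, 6.44 and 6.87 in replicates 1 to 3. That is the same order of tumors as for Pdgfc and the reverse of that for Pdgfrl. The part of adipose tissue, epithelium or immune cells in these differences was not tested.

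For most PDGF genes, tumors of the same group differed more than they did for the bulk of genes. The within-group SD of Pdgfra, 0.66, was larger than that of 98.3% of genes, and those of Pdgfrl (0.53), Pdgfc (0.44) and Pdgfrb (0.44) exceeded 97.3%, 95.9% and 95.8%. Pdgfa, at 0.32, exceeded 91.9%, Pdgfb, at 0.21, 78.3% and Pdgfd, at 0.11, 33.1%. Of all 19937 genes, 9019 had a mean below the median of all values, as Pdgfd alone of the 7 did. The SDs were not compared with those of genes of like signal. Water replicate 2 was the highest tumor for both Pdgfra and Pdgfrb and the lowest for Pdgfc. The same tumor was highest in the skeletal muscle (7.20), macrophage (9.77), endothelial (7.86), tip cell (8.46) and keratinocyte (6.95) lists and lowest of the 6 in the fibroblast (8.76) and adipocyte (6.44) lists. The part of these tissues was not tested.

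Likeness of profile was measured as the root mean square difference over the 6 tumors after each gene was centred on its own mean, among 3591 genes with a mean at or above the median signal and a range of at least 0.5. Nearest to Pdgfc were Gpm6b, a membrane proteolipid gene (0.26), Vegfc, the ligand of lymphatic VEGFR3 (0.28), and Cldn4, a tight junction gene (0.30), against a median of 0.89 over all candidates. Nearest to Pdgfrl were Vegfc (0.28), Bdh2 (0.29) and Angpt1, the ligand of TIE2 (0.35), against a median of 0.78. Vegfc was 7.33, 6.88 and 7.49 in water and 8.90, 8.45 and 7.77 in TKI258 replicates 1 to 3 (difference 1.14 ± 0.30, limma adjusted p = 0.567). Angpt1 was 8.56, 8.65 and 8.30 in water and 10.34, 10.28 and 9.45 in TKI258 tumors. Both genes were picked by their likeness over these same tumors, so their order among tumors is no separate evidence. Pdgfrl ranked 34th among the candidates by likeness to Pdgfc, and Pdgfc ranked 48th by likeness to Pdgfrl (0.50). The profiles were centred but not scaled, so large group differences in the same direction, here 1.45 and 1.17, bring genes near each other. These ranks are no separate evidence either.

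The other members followed different genes. Nearest to Pdgfra were the TNF receptor family gene Tnfrsf19 (0.10), Eva1c (0.10) and the matricellular gene Ccn5 (0.13), all highest in water replicate 2 and lowest in water replicate 3, as Pdgfra was. Nearest to Pdgfrb were Cdc42ep3 (0.08), Fkbp7 (0.10) and Zfp637 (0.11), and Pdgfa ranked 20th (0.18), while Pdgfra ranked 1631st (0.38). Nearest to Pdgfa were the phospholipase gene Pla2g4a (0.07), the WNT receptor gene Fzd2 (0.08) and Fam114a1 (0.09). Nearest to Pdgfb were 2310030G06Rik, Tyw5 and Cyb5r1, at 0.05 to 0.06. Pdgfd had a range of 0.40 and was not compared.

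**Figure D3:**
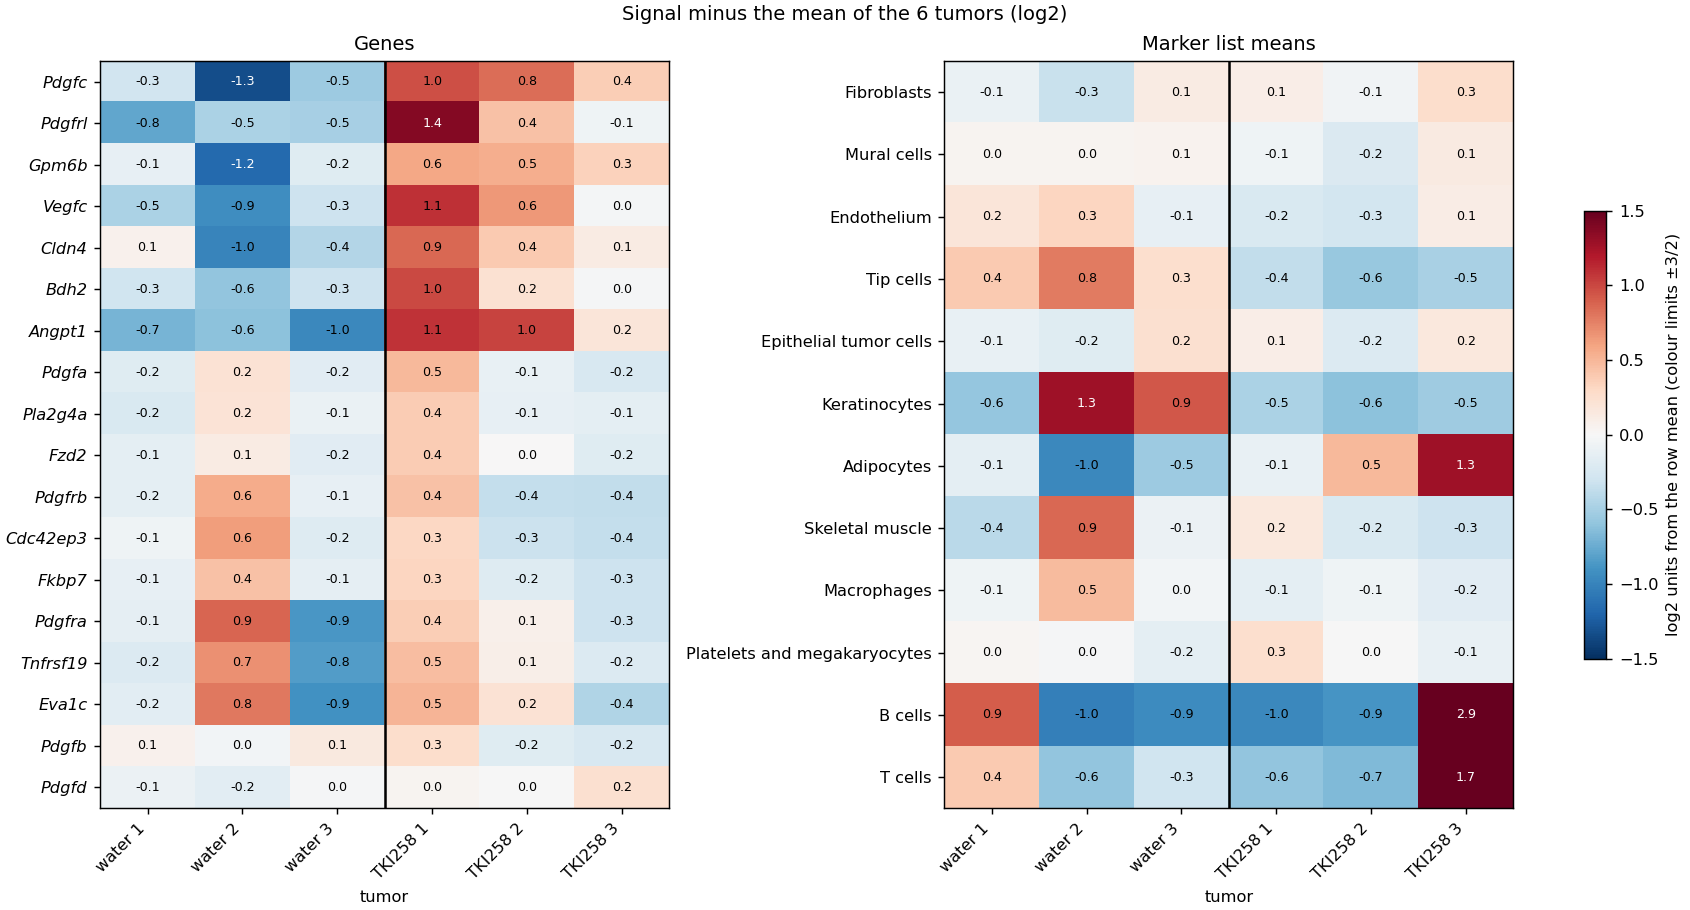
Colour and printed numbers give the signal minus the mean of the 6 tumors (log2) for the PDGF genes and some of the genes nearest to them (left) and for marker list means (right), with 3 water tumors left of the black line and 3 TKI258 tumors right of it. The rows from Pdgfc to Angpt1 are mostly blue in water and mostly red in TKI258 tumors, those of Pdgfra and its neighbours are reddest in water replicate 2, and the adipocyte row is reddest in TKI258 replicate 3.

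Genes that work around the receptors showed small differences, and none of them passed the limma test over all probe sets (0% of probe sets passed). Of 8 genes that process the ligands, 3 had a higher and 5 a lower mean in the TKI258 group, with a median difference of -0.03. Plau (urokinase), which activates PDGF-D, was 10.14, 10.39 and 10.05 in water and 9.91, 9.88 and 9.51 in TKI258 tumors, all TKI258 tumors being below all water tumors (-0.42 ± 0.15). Plat (tissue plasminogen activator), which activates PDGF-C, was 8.05, 8.53 and 8.0 in water and 8.09, 7.45 and 7.54 in TKI258 tumors, with overlap (-0.50 ± 0.22). The signal of Plat, unlike that of Pdgfc, was thus not higher with treatment. The protease gene St14 (matriptase) differed by 0.37 ± 0.29. Of 10 co-receptor and ligand-binding genes 5 were higher and 5 lower (median -0.02), with the caveolin gene Cav1 at -0.41 ± 0.21, the neuropilin gene Nrp1 at 0.46 ± 0.23 and Lrp1, which binds PDGFR-beta, at 0.24 ± 0.14.

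Of 30 measured adaptor and effector genes of the receptors, 14 were higher and 16 lower (median 0.00), and 2 higher and 1 lower had an unadjusted limma p under 0.05, against 3.79% and 3.35% of all genes. The lower one was Rasa1, the RAS GTPase-activating protein that docks on PDGFR-beta, at 10.02, 10.20 and 10.07 in water and 9.77, 9.81 and 9.63 in TKI258 tumors (-0.36 ± 0.09). The higher ones were the adaptor gene Grb14 (0.50 ± 0.15, below the median signal in water) and the phospholipase gene Plcg2 (0.44 ± 0.15), each without overlap. Of 11 phosphatase and ubiquitin ligase genes that restrain receptor signaling, 5 were higher and 6 lower (median 0.00), and the phosphatase genes Ptpn12 and Ptpn2 differed by -0.24 ± 0.09 and -0.19 ± 0.11 and the feedback inhibitor gene Socs1 by 0.17 ± 0.19. Of 23 genes that PDGF is known to induce in cultured cells, 6 were higher and 17 lower, with a median of -0.14, whereas 8650 of all 19937 genes were lower and the median of all was 0.02. The transcription factor genes Jun and Fos differed by -0.46 ± 0.16 and -0.45 ± 0.18 and the polyamine synthesis gene Odc1 by -0.32 ± 0.11. The list mean was 8.81 to 8.95 in water, 8.89 and 8.82 in TKI258 replicates 1 and 2 and 8.48 in replicate 3, so TKI258 replicate 3 alone lay below all water tumors.

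**Figure D4:**
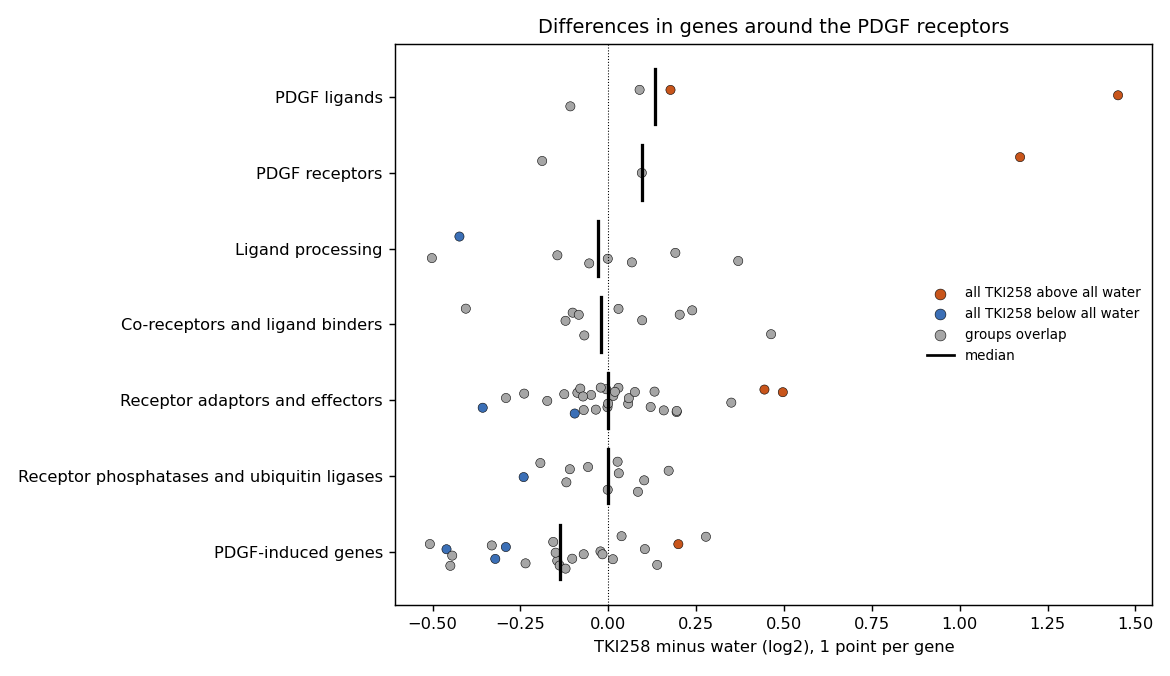
Each point is 1 gene, placed by its difference between TKI258 and water tumors (log2) in the row of its list. Orange and blue mark genes whose 3 TKI258 tumors all lie above or below the 3 water tumors, and black bars are list medians. Pdgfc and Pdgfrl lie to the right of every other gene drawn, whose differences run from -0.51 to 0.50.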

How the data were processed

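The authors deposited 1 log2 signal per probe set and tumor, summarized with RMA, per the submitters' processing notes, where affy and limma are named too. No version, build or order of steps was stated there. RMA normalizes the arrays to each other, so differences are relative to the rest of the array and carry no depth. The 3 arrays per group limit the precision.

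Genes were named through the platform annotation: of 34760 probe sets 21640 name 1 gene, 1321 several and 11799 none listed, and 21553 matched RefSeq (GRCm38.p6) by Entrez number with 0 symbols changed. Where a gene had several probe sets, the brightest on average was used. TKI258 was compared with water by limma (R 4.3.3, limma 3.58.1) with group as the only term and eBayes, two-sided, adjusted by Benjamini-Hochberg over all probe sets, at a threshold of 0.05. Standard errors and 95% intervals are moderated, and every difference subtracts water from TKI258 on the log2 scale. The fit was tested on simulated data.

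The 7 genes and the lists around them (5 of the pathway, 14 of cell types) were chosen with earlier results of these data known, and lists are described by counts and medians without a test. Named were all 7 genes, the 3 members of each pathway list with the smallest limma p, preset cell type markers and the 3 genes nearest in profile to each member. Listed genes that lack their own probe set are not analysed here. Promoter windows were found by symbol for 4 of the 7 genes. The alternatives were filtering out low signals, quantile normalization, centring on medians, the replicate number as a block, leaving out each array or both arrays high in B cell markers, a trended and robust prior, weighting the arrays, averaging the probe sets of a gene, testing only probe sets that name 1 gene, and a threshold of 0.1. Counts of non-overlapping genes with tumors left out were added after seeing the data.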

Additional observations from a re-analysis of the deposited data

How the results depend on the processing

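Over 16 alternatives no PDGF gene passed (0 in each), and Pdgfc, Pdgfrl, Pdgfd and Pdgfb kept their direction wherever they were tested (Pdgfd was below the low-signal filter). The threshold of 0.1 reused the main fit. Filtering low signals, averaging probe sets and testing only probe sets that name 1 gene changed none of the PDGF differences tested. The replicate block and the trended and robust prior left these differences unchanged too, so none of these settings could turn a direction. The differences that turned direction were those of Pdgfa without TKI258 replicate 1 (-0.13; range with 1 array left out -0.13 to 0.23), of Pdgfra without water replicate 3 (-0.32) or TKI258 replicate 1 (-0.066; range -0.32 to 0.55), and of Pdgfrb without water replicate 2 (0.044; range -0.46 to 0.044) and with array weights (0.085). The cause was not tested. With 1 array left out, 0 to 3 of all 34760 probe sets passed, 0 of the PDGF genes and 0 to 2 of the genes on the other lists. The 3 were lower without water replicate 1, the water tumor low in keratinocyte markers: Krt1, Krtdap and a probe set without a single gene. Krt1 was also the 1 probe set that passed without both water replicate 1 and TKI258 replicate 3. The replicate block left 0 probe sets passing, with Pdgfc at an adjusted limma p of 0.557 and Pdgfrl at 0.613. Deviations of same-numbered tumors from their group means had correlations of -0.23, 0.19 and 0.01. With 3 tumors per group these values cannot decide whether the numbers pair tumors, and the sample titles do not say. The small number of arrays limits every comparison here: the 95% interval of Pdgfra spans from -0.92 to 1.11 on the log2 scale.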
